A study of Rattus norvegicus with 18 samples.

Results

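The carboxylesterases Ces1c, Ces1d, Ces1e, Ces1f, Ces2a, Ces2c and Ces2e were followed in the liver transcriptome of rats with experimental steatohepatitis (NASH). The 7 genes were chosen by the level of Ces2c, which was higher in NASH than in control liver in these same rats, and each was looked for by its gene symbol among the 32623 genes of each rat's table. A row was found for 5 of them, namely Ces1d, Ces1f, Ces2a, Ces2c and Ces2e, and all 5 passed the filter on low counts together with 12904 genes in all. Ces1c and Ces1e were not matched by symbol and are not analysed here. The tables held 7 further carboxylesterase symbols, of which 5 passed the filter (Ces2g, Ces2h, Ces2i, Ces2j and Ces4a), so that 10 of 12 carboxylesterases were tested.

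Carboxylesterases are serine hydrolases of the endoplasmic reticulum that cleave esters, thioesters and amides. In hepatocytes they split ester drugs and prodrugs and also act on neutral lipids and retinyl esters. The Ces1 and Ces2 families differ in the size of the acyl and alcohol groups that they accept, and rodents carry many tandem copies of both, so that reads of 1 gene can also fit its neighbour. Several are held in the endoplasmic reticulum lumen by a signal that the KDEL receptors recognise, and Ces1e (egasyn) holds beta-glucuronidase there.

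Male Wistar rats formed 3 groups of 6, with 1 liver library per rat. NASH rats inhaled carbon tetrachloride (CCl4), a hepatotoxin, with phenobarbital in the drinking water for 6 weeks and then ate a high-fat, high-cholesterol diet (HFCD) for 4 weeks, 10 weeks in all. NASH-CH rats received CCl4 and phenobarbital for 24 weeks and the HFCD for the last 16. Control rats were kept on chow for 12 weeks, without CCl4 or phenobarbital, so that no group shared its duration with another. These schedules are those of the study's methods, while the labels give combined treatment for 10 and 24 weeks. By the methods, phenobarbital, a drug that induces liver cytochromes P450 through the receptor CAR (Nr1i3), was given up to the end in NASH-CH rats and was stopped 4 weeks before the end in NASH rats. Its effect cannot be told apart from that of CCl4 or of the diet.

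Levels are read counts scaled to library size (CPM, counts in 1000000 reads) and are given as mean ± SD of 6 rats. Since reads were not divided by gene length, a level is compared between rats for each gene, and a ratio or share between genes is one of reads. The total of expected counts ran from 19498534 to 27174015 in control rats, from 20827770 to 29491947 in NASH rats and from 44680344 to 60117822 in NASH-CH rats, and the deeper sequencing of NASH-CH rats cannot be told apart from the condition. Hepatocyte markers summed to 110000 to 154000 CPM in control rats, 73900 to 117000 in NASH rats and 55500 to 112000 in NASH-CH rats, with none of the 8 at 0. This sum was mostly Alb, albumin (106000 ± 14900, 74900 ± 13000 and 71000 ± 18700 CPM in that order). Of the 8 markers, limma called 1 higher and 1 lower in NASH and 1 higher and 3 lower in NASH-CH, each against control. Of 8 macrophage markers, 1 was lower in NASH and 6 were lower in NASH-CH than in control rats, with sums of 269 to 489 CPM in control, 189 to 279 in NASH and 161 to 251 in NASH-CH rats. Of 7 markers of stellate cells and myofibroblasts, 2 were higher and 1 lower in NASH-CH than in control rats, and 3 were higher than in NASH, with sums of 295 to 405, 276 to 375 and 309 to 455 CPM. Of all tested genes, limma called 1.58% higher and 1.54% lower in NASH than in control rats. In NASH-CH rats these shares were 8.38% and 8.60% against control, and 1.81% were higher than in NASH. The 4 pancreatic acinar markers reached 46.5 CPM in 1 NASH-CH rat (median of that group 0.17). The part of these cell contents in the levels below was not tested. Of 5 markers of intestinal epithelium, another tissue rich in carboxylesterases, Cdh17 took nearly all reads (9.74 ± 10.2 CPM in control rats, 52.7 ± 22.7 in NASH and 25.4 ± 27.5 in NASH-CH rats), while the highest rat had 0.883 CPM of Fabp2, 1.30 of Vil1 and 0.169 of Lgals4. Of the 2 that passed the filter, limma called 1 higher in NASH than in control rats. Which cells the Cdh17 reads came from was not tested. With NASH-CH counts thinned to the mean depth of control rats, chosen after seeing the data, the log2 fold change against control was 3.20 for Ces2c and 1.29 for Ces2a, near the values below.

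The start regions of Ces2c, Ces2i, Ces2j and Ces2e are shown first, so that the likeness between these paralogues can be seen beside their values. They are RefSeq windows of 300 bases on the GRCr8 assembly, from 250 bases before the gene start to 50 after it, on the plus strand, while the reads were counted on Rnor_6.0. A window was available for 9 of the 10 tested carboxylesterases and not for Ces2a, a gene that the RefSeq table lists as a transcribed pseudogene. The capitals mark the block CCTGCCTGG, chosen after these windows had been read. The windows lie at chr1:270376951-270377250 for Ces2c, chr1:270307363-270307662 for Ces2i, chr19:304819-305118 for Ces2j and chr19:163649-163948 for Ces2e.
Ces2c promoter: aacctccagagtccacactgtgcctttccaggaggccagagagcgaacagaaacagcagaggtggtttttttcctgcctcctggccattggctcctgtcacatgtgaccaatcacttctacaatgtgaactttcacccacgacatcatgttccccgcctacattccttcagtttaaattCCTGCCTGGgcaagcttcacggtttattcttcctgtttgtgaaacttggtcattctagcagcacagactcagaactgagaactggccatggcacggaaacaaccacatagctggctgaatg
Ces2i promoter: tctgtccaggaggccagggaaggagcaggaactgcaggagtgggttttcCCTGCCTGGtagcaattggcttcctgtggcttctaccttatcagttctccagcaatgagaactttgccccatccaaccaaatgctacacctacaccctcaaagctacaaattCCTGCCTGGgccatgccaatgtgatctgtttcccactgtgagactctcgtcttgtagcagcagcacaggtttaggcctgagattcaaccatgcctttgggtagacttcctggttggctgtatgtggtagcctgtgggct
Ces2j promoter: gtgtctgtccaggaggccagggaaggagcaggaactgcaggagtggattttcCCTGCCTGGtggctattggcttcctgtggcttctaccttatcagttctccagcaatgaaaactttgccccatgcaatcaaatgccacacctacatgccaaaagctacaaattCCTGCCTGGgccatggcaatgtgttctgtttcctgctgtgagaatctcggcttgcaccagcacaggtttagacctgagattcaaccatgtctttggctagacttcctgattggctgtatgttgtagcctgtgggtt
Ces2e promoter: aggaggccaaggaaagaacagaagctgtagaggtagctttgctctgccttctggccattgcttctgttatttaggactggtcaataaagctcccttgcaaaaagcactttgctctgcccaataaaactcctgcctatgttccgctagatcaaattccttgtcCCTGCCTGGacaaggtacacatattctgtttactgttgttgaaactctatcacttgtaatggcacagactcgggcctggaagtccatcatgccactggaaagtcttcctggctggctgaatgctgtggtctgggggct
The windows of Ces2i and Ces2j were identical in 90.1% of aligned positions, the highest of the 36 pairs of windows. Ces2c matched Ces2j in 59.4%, Ces2i in 57.0% and Ces2e in 55.9%, while Ces1d and Ces1f matched in 47.1%. Pairs of a Ces1 with a Ces2 window matched in 43.2 to 49%, so the value of Ces1d with Ces1f is within the range between the families. The block began 71 bases before the start of Ces2c, 88 before that of Ces2e and 40 before that of Ces2g, and it stood at 201 and 89 bases before the start of Ces2i and at 198 and 86 before that of Ces2j. It was in 5 of the 9 carboxylesterase windows and, read on both strands, in 373 of all 33469 windows (1.11%). The Ces1d, Ces1f, Ces2h and Ces4a windows did not hold these letters. The motif CCAAT, read the same way, was in 7 of the 9 windows and in 37.5% of all windows, and TATAAA in 0 of the 9 and 14.2%. The nuclear receptor motif AGGTCA was in 2 of the 9 windows (Ces2h and Ces4a) and 16.2% of all, and AGTTCA in 2 of the 9 (Ces2c and Ces2h) and 14.5%. In the RefSeq order of GRCr8, Ces2i, a Ces2c pseudogene and Ces2c follow each other on chromosome 1, and the other tested members are on chromosome 19.

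In comparison to control animals, Ces2c, a Ces2 hydrolase of the liver, was higher in all rats of both models. The gene was the reason for choosing the family, so its values are given as a description without a test. In control rats it lay between 4.96 and 10.3 CPM with a median of 8.28. NASH rats ranged from 13.4 to 129 CPM with a median of 44.8, and NASH-CH rats from 57.7 to 86.2 CPM with a median of 71.8. No rat of either model overlapped the control rats. Such a separation above control was seen in 1.77% of all tested genes in NASH and in 3.64% in NASH-CH rats, and nothing is read from it for Ces2c. Behind these levels stood 100 to 288 reads per control rat, 425 to 3356.94 per NASH rat and 2642 to 5432 per NASH-CH rat. In bulk liver, more cells that express a gene and more of its RNA per cell cannot be told apart.

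The mean Ces2c level was 7.88 ± 2.15 CPM in control rats, 60.6 ± 48.0 in NASH and 72.1 ± 9.36 in NASH-CH rats. The fitted log2 fold change against control was 2.55 (SE 0.45) in NASH and 3.22 (SE 0.48) in NASH-CH rats, and that of NASH-CH against NASH was 0.67 (SE 0.44). The last was 0.253 in edgeR and 0.249 in DESeq2, and leaving out 1 rat moved it from 0.333 (without NASH rat 6) to 0.985 (without NASH rat 3). The 2 models differed in spread, since the highest NASH rat had 9.64 times the Ces2c of the lowest and the highest NASH-CH rat 1.49 times. NASH rats 1, 2 and 3 had 61.6, 107 and 129 CPM, and rats 4, 5 and 6 had 28.0, 24.1 and 13.4. The first 3 of these rats were thus within or above the NASH-CH range and the others were between that range and the control rats.

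**Figure D1:**
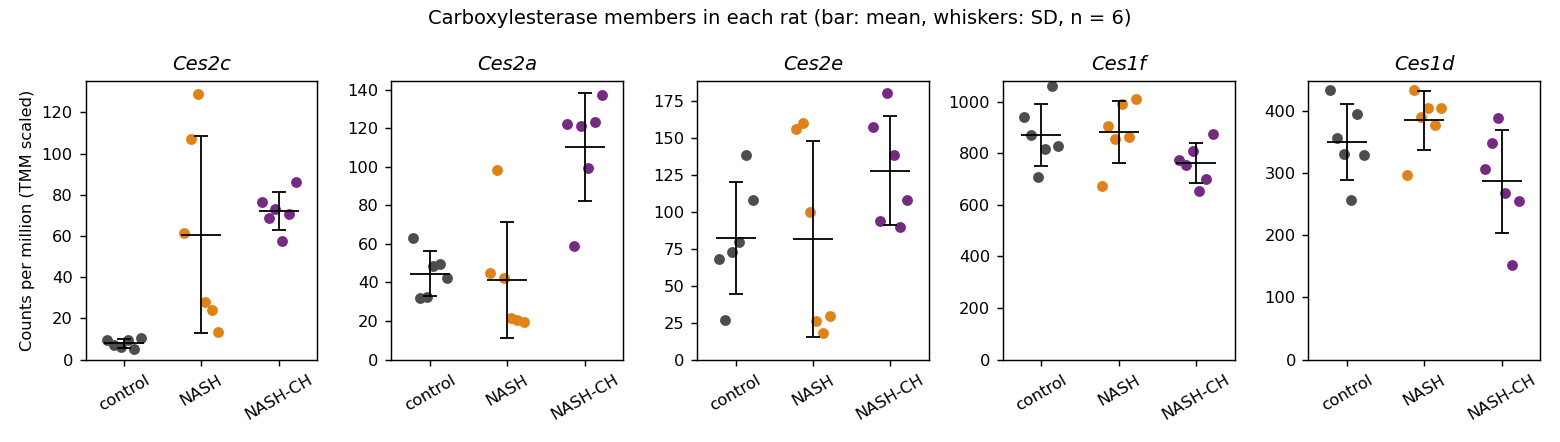
CPM of the 5 matched carboxylesterases in each of the 18 rats (linear axes from 0), 1 panel per gene, with points for rats, a bar for the group mean and whiskers for the SD (n = 6). Ces2c is separated from the control rats in both models, Ces2a is higher in 5 of 6 NASH-CH rats than in any control rat, and Ces1d and Ces1f overlap throughout.

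Of the 4 other members, 0 passed the test between NASH and control rats, and 1, Ces2a, was higher in NASH-CH rats than in control and in NASH rats. The test was limma-voom with Benjamini-Hochberg adjustment over all 12904 genes at 0.05. At an unadjusted p under 0.05, 0 of 4 passed between NASH and control (21.5% of all tested genes did), and edgeR and DESeq2 also called 0. The background of calls among all tested genes was 3.12% for NASH against control, 17.0% for NASH-CH against control and 4.20% for NASH-CH against NASH. Counted by direction, 8.38% of all tested genes were higher in NASH-CH than in control rats and 1.81% higher than in NASH rats. The 1 call of 4 in NASH-CH against control is thus not far from the share of all genes.

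Ces2a, whose RefSeq entry in GRCr8 is a transcribed pseudogene, was higher in NASH-CH liver. Its level was 32.1 to 62.8 CPM in control rats (median 45.3), 19.6 to 98.5 in NASH rats (median 32.0) and 58.9 to 137 in NASH-CH rats (median 122). NASH-CH rats other than the lowest lay above every control rat and above every NASH rat. The log2 fold change was 1.29 against control (SE 0.36, limma adjusted p = 0.0198) and 1.62 against NASH (SE 0.36, limma adjusted p = 0.0119). In NASH rats the level was 41.3 ± 30.2 CPM against 44.6 ± 11.6 in control rats, a log2 fold change of -0.33 with a 95% interval of -1.01 to 0.34 (limma adjusted p = 0.591).

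Ces2i and Ces2j, carboxylesterases outside the 7 named genes whose start regions are shown above, passed the same tests as Ces2a. Ces2i was at 3.47 ± 0.574 CPM in control rats, 4.18 ± 3.39 in NASH and 11.7 ± 3.03 in NASH-CH rats. Every NASH-CH rat exceeded every control rat, as in 3.64% of all tested genes. The log2 fold change of Ces2i against control was 1.71 (SE 0.31, limma adjusted p = 0.00118), and that against NASH was 1.77 (SE 0.30, limma adjusted p = 0.00115). Ces2j was at 12 ± 2.99 CPM in control rats, 10.5 ± 7.36 in NASH and 26.7 ± 8.62 in NASH-CH rats. Its log2 fold changes were 1.12 against control (SE 0.32, limma adjusted p = 0.0230) and 1.53 against NASH (SE 0.32, limma adjusted p = 0.00871). The call against control was lost for Ces2j without control rat 3 (1.03, limma adjusted p = 0.0544), without NASH-CH rat 6 (0.99, limma adjusted p = 0.0528) and with sample quality weights (0.965, limma adjusted p = 0.061). It was also lost with the replicate block, whose values are given at the end.

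The counts of Ces2a, Ces2i and Ces2j held split reads in most or all rats. RSEM splits a read that fits several genes, and the expected count of Ces2a and of Ces2j was not a whole number (within 0.005) in any of the 18 rats, and the Ces2i count was not whole in 15 rats. Which genes shared these reads, and how large a part of each count they made up, was not tested. Among all tested genes, 7.54% had no whole count in any rat and 81.7% had a whole count in every rat. There were 3.42 to 4.40 Ces2a reads per Ces2j read in the 18 rats (median 3.92, CV 8.66%). Summed, the 3 genes had 60.1 ± 14.9 CPM in control rats, 55.9 ± 40.9 in NASH and 149 ± 38.8 in NASH-CH rats, a sum that does not depend on how reads were divided among the 3. Ces2c had a count that was not whole in 4 rats and Ces2e in 1, and Ces1d and Ces1f in all 18.

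Ces2e, which is next to Ces2a and Ces2j in the RefSeq order, varied widely within the groups. It ranged from 26.6 to 138 CPM in control rats (median 76.2), from 18.2 to 160 in NASH rats (median 64.7) and from 89.9 to 180 in NASH-CH rats (median 123). The groups overlapped in each comparison, and the mean of NASH rats (81.6 ± 66.1) was near that of control rats (82.2 ± 37.8). The log2 fold change was -0.34 in NASH (SE 0.50, 95% interval -1.40 to 0.71, limma adjusted p = 0.736) and 0.75 in NASH-CH rats (SE 0.55, 95% interval -0.40 to 1.90, limma adjusted p = 0.367). The first ran from -0.647 without NASH rat 2 to -0.0173 without NASH rat 5, and was -0.0105 in edgeR.

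Ces1d and Ces1f, the Ces1 members, hydrolyse neutral lipids in hepatocytes, and the mouse Ces1d enzyme is known as triacylglycerol hydrolase. Ces1d lay between 256 and 434 CPM in control rats (median 344), 297 and 434 in NASH rats (median 397) and 152 and 389 in NASH-CH rats (median 287). Ces1f lay between 708 and 1060 CPM in control rats (median 849), 672 and 1010 in NASH rats (median 883) and 654 and 873 in NASH-CH rats (median 765). Both genes overlapped between all groups. Against control, the log2 fold change of Ces1d was 0.14 in NASH rats (SE 0.18, limma adjusted p = 0.703) and -0.33 in NASH-CH rats (SE 0.18, limma adjusted p = 0.224). That of Ces1f was 0.02 in NASH rats (SE 0.12, limma adjusted p = 0.955) and -0.19 in NASH-CH rats (SE 0.12, limma adjusted p = 0.299). The 95% intervals of Ces1f were -0.23 to 0.27 and -0.45 to 0.07, and those of Ces1d were -0.24 to 0.51 and -0.71 to 0.05. Between the models, Ces1d had a log2 fold change of -0.46 in NASH-CH (SE 0.18) with an unadjusted p of 0.0207 in limma, and it did not pass after adjustment (limma adjusted p = 0.182).

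**Figure D2:**
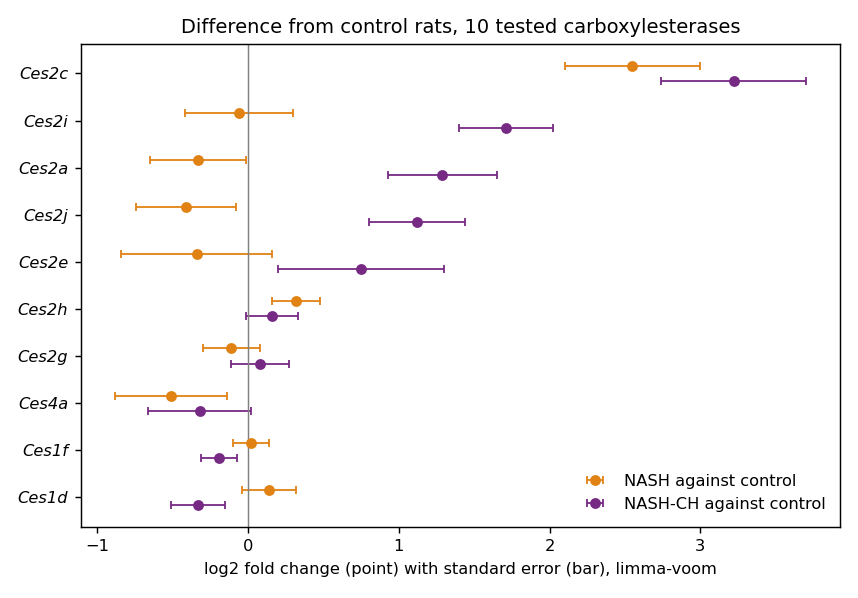
Log2 fold change of the 10 tested carboxylesterases in NASH and in NASH-CH against control (points) with standard error (bars), from the limma-voom fit of 18 rats. Ces2c is at 2.55 and 3.22 in the 2 models, Ces2a, Ces2i and Ces2j are at 1.29, 1.71 and 1.12 in NASH-CH and at -0.33, -0.06 and -0.41 in NASH, and Ces1d and Ces1f are within 0.33 of 0 in both.

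The remaining carboxylesterases that were tested, Ces2g, Ces2h and Ces4a, did not pass in any comparison. Ces2h was at 41.4 ± 10.3 CPM in control rats, 51.1 ± 9.93 in NASH and 45.6 ± 8.48 in NASH-CH rats, with a log2 fold change of 0.32 in NASH (SE 0.16, limma adjusted p = 0.254). Ces2g was at 23.6 ± 4.56, 22.6 ± 7.24 and 24.6 ± 1.35 CPM in the 3 groups in that order, and Ces4a at 9.68 ± 6.40, 5.80 ± 1.81 and 6.72 ± 2.41 CPM. Ces5a had 0 reads in all 18 rats, and Ces1a had 1 read in 1 control rat and 0 in the others. Over the 5 tested genes outside the 7, limma, edgeR and DESeq2 each called 0 in NASH against control, as did limma at an unadjusted p under 0.05. Over all tested genes these shares were 3.12%, 5.05%, 9.52% and 21.5% in that order, so that 0 of 5 says little about these genes. The 2 called with NASH-CH were Ces2i and Ces2j. Of all tested genes, 8.38% were called higher in NASH-CH than in control rats and 1.81% higher than in NASH rats.

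The sum over the 12 carboxylesterase rows found by symbol was 1450 ± 203 CPM in control rats, 1550 ± 171 in NASH and 1470 ± 171 in NASH-CH rats, while its make-up differed. Ces1c, Ces1e and others that RefSeq lists, for example Ces2b, Ces2f and Ces3a, had no row by symbol and are not in it. The family's reads below are those of these 12 rows, and their Ces1 part is Ces1d and Ces1f apart from 1 read of Ces1a. The Ces1 genes took 84.5% ± 3.00 of the family's reads in control rats, 82.2% ± 8.83 in NASH and 71.1% ± 3.42 in NASH-CH rats. The Ces2 genes took 14.8% ± 2.83, 17.4% ± 8.79 and 28.5% ± 3.54 in that order, and NASH-CH rats (21.6 to 31.4%) did not overlap control rats (9.67 to 17.5%). These shares include Ces2c, and with Ces2c left out of both sums they were 17.7 to 27.3% in NASH-CH, 9.19 to 16.9% in control and 7.99 to 23.9% in NASH rats. Ces2c alone took 0.555% ± 0.166 of the reads in control rats, 3.82% ± 2.82 in NASH and 4.91% ± 0.536 in NASH-CH rats. Without Ces2c the Ces2 genes summed to 207 ± 55.0 CPM in control rats, 211 ± 108 in NASH and 347 ± 64.2 in NASH-CH rats, and these sums overlapped (125 to 285 CPM in control and 239 to 411 in NASH-CH rats). These are shares of reads, not of molecules, since gene length was not taken into account.

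**Figure D3:**
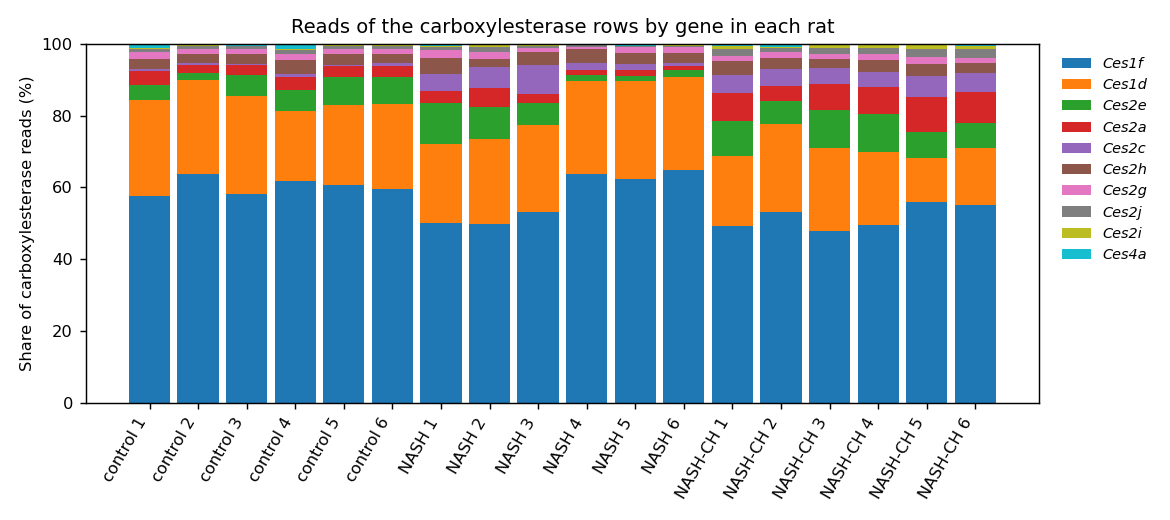
Share of the reads of the 12 carboxylesterase rows found by symbol (percent) taken by each gene in each of the 18 rats, stacked. The Ces2 part, Ces2c included, is 9.67 to 17.5% in control rats and 21.6 to 31.4% in NASH-CH rats, and in NASH rats it runs from 8.78 to 27.4%.

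Pooled over the 3 groups, the deviations of Ces2a, Ces2c, Ces2e, Ces2i and Ces2j from their group means went together. The correlation of log2 CPM deviations from the group means over the 18 rats was 0.74 between Ces2c and Ces2a, 0.72 between Ces2c and Ces2i, 0.65 between Ces2c and Ces2e and 0.76 between Ces2a and Ces2e, and lower between Ces2c and Ces2g (0.23) or Ces2h (0.12). Over the other 12903 tested genes the median correlation with Ces2c was 0, and 24 of them (0.186%) were at or above that of Ces2e. It was 0.50 between Ces1d and Ces1f, -0.05 between Ces1d and Ces2c and -0.27 between Ces1f and Ces2c. These are descriptions, and genes measured in the same library share its depth and scaling. Ces2a, Ces2i and Ces2j, whose counts held split reads in most or all rats, correlated with each other at 0.94 to 0.99. They may thus not be separate measures, and the part of read splitting in their correlations and in their shared order of rats was not tested. Whether the genes also went together in each group taken alone was not tested. Ces2c spread most in NASH rats, where the highest had 9.64 times the lowest, against 2.08 times in control and 1.49 times in NASH-CH rats. NASH rats therefore weigh most in the pooled correlations with Ces2c. In the NASH group the 3 highest rats were rats 1, 2 and 3 for Ces2a, Ces2c, Ces2e, Ces2i and Ces2j, as for 457 of all 12904 tested genes (3.54%). For Ces2e the lowest of those 3 rats had 99.9 CPM and the highest of the others 29.5, and for Ces2a these values were 42.4 and 21.6. Ces1d, Ces1f, Ces2g, Ces2h and Ces4a ranked the NASH rats in other orders.

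**Figure D4:**
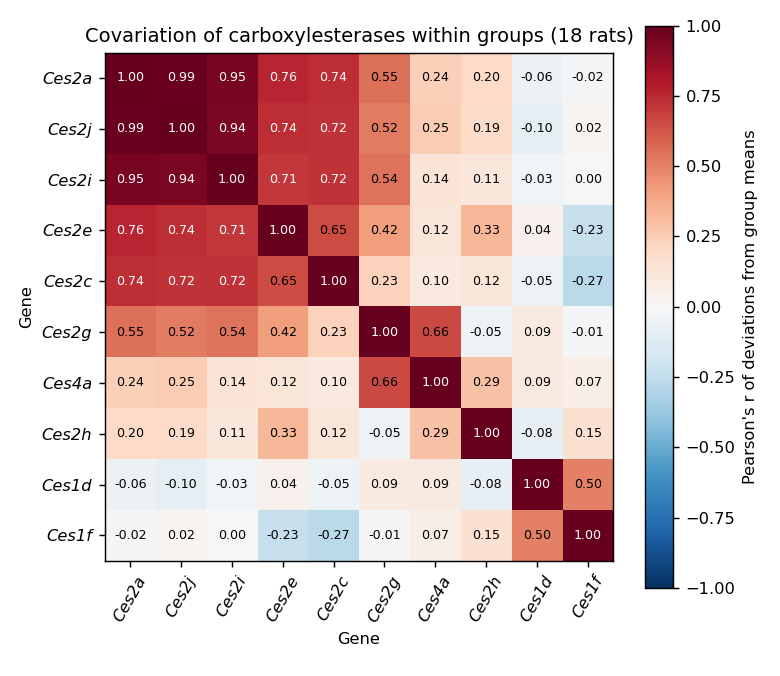
Correlation of deviations from the group means (log2 CPM, 18 rats) between each pair of tested carboxylesterases, by colour from -1 to 1. The Ces2a, Ces2c, Ces2e, Ces2i and Ces2j block lies between 0.65 and 0.99, and no pair of a Ces1 gene with one of these 5 is above 0.04.

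The 5 tested genes most like Ces2c over the 18 rats were LOC108348266, Aox1, LOC100910163, Serpina7 and Cyp3a23/3a1. Pearson's r with Ces2c was 0.95, 0.92, 0.91, 0.90 and 0.89 in that order, and within groups it was 0.83, 0.65, 0.63, 0.43 and 0.53. They are named by likeness of level alone, over rats that share the group differences of Ces2c. Aox1, aldehyde oxidase, which oxidises aldehydes and drug heterocycles, was at 343 ± 53.3 CPM in control rats, 501 ± 70.1 in NASH and 591 ± 77.5 in NASH-CH rats. Serpina7, the thyroxine-binding globulin, was at 1.47 ± 0.684, 14.5 ± 5.86 and 20.6 ± 8.80 CPM in the same order. Cyp3a23/3a1, a drug-metabolising cytochrome P450, was at 1020 ± 311, 2230 ± 629 and 2400 ± 178 CPM. LOC108348266 was at 29.1 ± 33.4, 876 ± 1140 and 2800 ± 769 CPM, and LOC100910163 at 24.8 ± 7.03, 65.0 ± 21.2 and 73.9 ± 16.4 CPM.

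**Figure D5:**
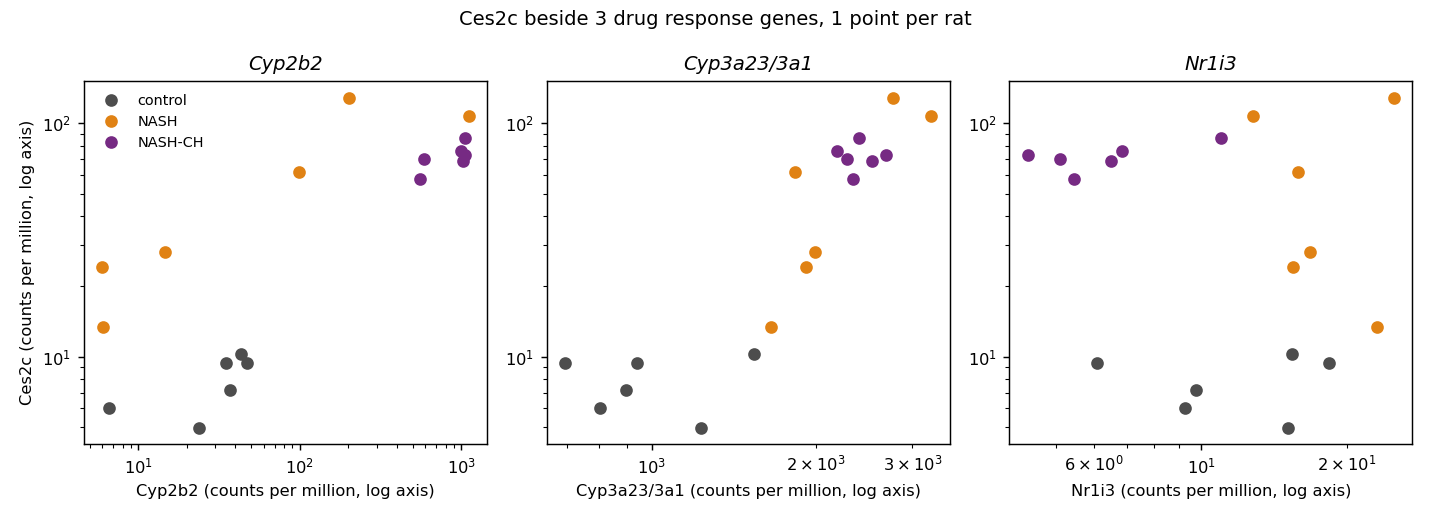
Ces2c CPM (vertical) against the CPM of Cyp2b2, Cyp3a23/3a1 and Nr1i3 (horizontal) on log axes, with 1 point per rat and colour for the group. The 3 NASH rats with the highest Ces2c (61.6 to 129 CPM) also have the highest Cyp2b2 of their group (98.5 to 1110 CPM), and NASH-CH rats have high Ces2c at low Nr1i3.

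A list of drug metabolism genes was drawn up as inducible by phenobarbital. Whether each of them responds to it was not tested here. Of its 12 matched genes (13 rows, since Cyp3a9 has 2), limma called 3 higher and 0 lower in NASH than in control rats. In NASH-CH rats it called 6 higher and 1 lower than in control rats. Over all tested genes these shares were 1.58% higher and 1.54% lower in NASH, and 8.38% and 8.60% in NASH-CH. In either direction edgeR called 4 and DESeq2 6 of the 13 in NASH, and 6 and 9 in NASH-CH, where of all 12904 genes edgeR called 652 in NASH and 2449 in NASH-CH, and DESeq2 called 1228 and 2841. The median log2 fold change of the list was 0.71 in NASH and 0.77 in NASH-CH rats, while over all tested genes it was 0.01 in both. Cyp3a2 rose by 1.31 on the log2 scale in NASH (SE 0.23, limma adjusted p = 0.00759) and by 1.24 in NASH-CH rats (SE 0.24, limma adjusted p = 0.00185). Cyp3a23/3a1 rose by 1.15 (SE 0.19, limma adjusted p = 0.00528) and 1.29 (SE 0.19, limma adjusted p = 0.000184). Of the 2 rows named Cyp3a9, that of ENSRNOG00000001379 rose by 1.20 (limma adjusted p = 0.0161) and 1.39 (limma adjusted p = 0.00076), and the other was not called. Ephx1, the microsomal epoxide hydrolase, rose by 1.31 in NASH-CH (SE 0.26, limma adjusted p = 0.00263), and Cyp2b3 fell by 0.55 (SE 0.19, limma adjusted p = 0.0492), a call lost in 20 of 29 alternatives. Cyp2b1 was not matched by symbol.

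Cyp2b2, the cytochrome P450 most used as a sign of phenobarbital induction, was at 6.56 to 47.2 CPM in control rats and at 555 to 1060 in NASH-CH rats, with a log2 fold change of 4.96 (SE 1.20, limma adjusted p = 0.00946). In NASH rats 1 to 6 it was at 98.5, 1110, 201, 14.7, 5.99 and 6.10 CPM. These rats reached both the NASH-CH range and the low end of control rats, and the log2 fold change was 0.84 (SE 0.97, limma adjusted p = 0.661). Without NASH rat 2 it was -0.109, while in DESeq2 it was 2.89 and passed (DESeq2 adjusted p = 0.0241). Cyp2b2 ranked rats 1, 2 and 3 above rats 4, 5 and 6, as Ces2c did, and the correlation of the genes within groups was 0.89. Cyp2c6v1 rose in NASH-CH rats, against control by 2.14 (SE 0.29, limma adjusted p = 5.47e-05) and against NASH by 1.21 (SE 0.29, limma adjusted p = 0.0244), the last lost in 6 of 29 alternatives, among them those without NASH rat 4, 5 or 6 and without NASH-CH rat 2 (limma adjusted p = 0.0521 to 0.0586). It was the 1 gene of the list that limma called between the models, where edgeR called 0 and DESeq2 2. Cyp2b2 was at 4.11 in that comparison (limma adjusted p = 0.0616) and gained the call in 5 of 29 alternatives, for example without NASH rat 2 (5.06, limma adjusted p = 0.00344). Any part of phenobarbital in the level of Ces2c was not tested.

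Among 14 partners and regulators of carboxylesterases (15 rows, since Nr3c1 has 2), 1 passed as higher and 0 as lower for NASH against control, and 2 as higher and 1 as lower for NASH-CH, beside 1.58%, 1.54%, 8.38% and 8.60% of all tested genes in that order. Ppara, the nuclear receptor of fatty acid oxidation, rose by 0.91 in NASH (SE 0.22, limma adjusted p = 0.0308) and by 0.88 in NASH-CH rats (SE 0.23, limma adjusted p = 0.0132). The KDEL receptor Kdelr1 rose by 0.38 in NASH-CH rats (SE 0.10, limma adjusted p = 0.0112). Nr1i3 (CAR) was at 12.3 ± 4.68 CPM in control rats, 18.2 ± 4.82 in NASH and 6.54 ± 2.38 in NASH-CH rats. Against control it fell by 0.87 in NASH-CH rats (SE 0.26, limma adjusted p = 0.0289), and its log2 fold change against NASH was -1.51 (SE 0.25, limma adjusted p = 0.000901). Its within-group correlation with Ces2c was -0.01. Nr1i2 (PXR) and Gusb (beta-glucuronidase) did not pass in any comparison. The NASH call of Ppara was lost in 10 of 28 alternatives, among them the fits without control rat 1, 3, 4 or 5 and without NASH rat 1, 2, 3, 4 or 5 (limma adjusted p = 0.0533 to 0.077). The NASH-CH call of Nr1i3 against control was lost in 7 of 29, among them those without control rat 1, 5 or 6 and without NASH-CH rat 3 or 5 (limma adjusted p = 0.0502 to 0.0675). Between the models Kdelr1 was higher by 0.34 (SE 0.09, limma adjusted p = 0.0489), a call lost in 20 of 29.

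Of 27 other ester and lipid hydrolases tested, 0 passed in NASH against control in limma (4 in edgeR and 6 in DESeq2, and 12 in limma at an unadjusted p under 0.05). Over all tested genes these 3 shares were 5.05%, 9.52% and 21.5%. For NASH-CH against control, 1 passed as higher and 2 as lower in limma, beside 8.38% and 8.60% of all tested genes. Bche, butyrylcholinesterase of plasma, rose from 5.47 ± 1.12 to 10.8 ± 2.15 CPM, a log2 fold change of 0.99 (SE 0.20, limma adjusted p = 0.00269). Mgll, which cleaves monoacylglycerols, was at 22.8 ± 3.25 CPM in control rats and 14.7 ± 3.55 in NASH-CH rats, a log2 fold change of -0.66 (SE 0.15, limma adjusted p = 0.00791), and that of Lypla1, a thioesterase, was -0.55 (SE 0.16, limma adjusted p = 0.0209). Between the models, where 2.39% of all tested genes were lower in NASH-CH, Pon3, a lactonase, fell by 0.39 on the log2 scale (SE 0.11, limma adjusted p = 0.0489), a call lost in 16 of 29 alternatives. The median of the list was -0.09 in NASH and -0.18 in NASH-CH rats, against 0.01 over all tested genes in both. The other 24 hydrolases did not pass in NASH-CH against control. With library size only, the calls of Mgll (-0.406, limma adjusted p = 0.0507) and Lypla1 (-0.294, limma adjusted p = 0.0659) were lost, and that of Lypla1 also without control rat 5 (limma adjusted p = 0.051) or NASH-CH rat 6 (limma adjusted p = 0.0523).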

How the data were processed

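The authors trimmed reads, aligned them to Rnor_6.0 with STAR and deposited the RSEM expected counts of each rat, on Ensembl annotation and not normalized (tool versions are not given in the sources used here). The labels name another RNA kit than the methods. The library kit keeps strand, but the counting setting is not given in the sources used here. Samples were grouped by the labels.

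Expected counts were rounded, scaled by TMM (edgeR 4.0.16), kept by filterByExpr (12904 of 32623 genes) and tested with limma 3.58.1 (voom) in R 4.3.3. All 18 rats entered 1 fit, with Benjamini-Hochberg adjustment at 0.05. Levels are CPM of TMM-scaled libraries, and log2 CPM used a prior count of 2. Totals of 19498534 to 60117822 bound counting error only. No rats agreed within sampling noise. The alternatives were the quasi-likelihood test of edgeR, the Wald test of DESeq2 1.42.0, other scalings, filters and samples, sample quality weights, the replicate block, no small non-coding RNA genes (4002 by symbol) and leaving out each rat. Thinning of NASH-CH counts was added after seeing the data. The scripts were tested on simulated data.

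Genes were named by rule: the 7 members, the other tested carboxylesterases, called genes of each list (at most 6 by fold per comparison), Nr1i2, Nr1i3, Gusb, Cyp2b1 and Cyp2b2, and the 5 genes most correlated with Ces2c. Pnpla3 was named outside this rule, for its fold change. Members and lists were chosen with earlier results of these data known. RefSeq sequences (GRCr8) were matched by symbol.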

Additional observations from a re-analysis of the deposited data

Results flagged for a closer look

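In the NASH group, rat 2 stood apart from the other 5 rats for Ces2a, Ces2i and Ces2j, whose counts are mostly not whole numbers. It had 98.5 CPM of Ces2a (next rat 44.8), 10.8 CPM of Ces2i (next rat 4.23) and 24.4 CPM of Ces2j (next rat 11.6). In the NASH-CH group, rat 1 had 62.7 CPM of Ces2h, with the next rat at 44.4. These were 4 of 30 groups of 6 rats examined, by the gap to the nearest rat as a share of the range, and chance marks about 1 in 20 groups. On log2 CPM the gaps of NASH rat 2 were 0.488, 0.552 and 0.481 of the range for the 3 genes, under Dixon's critical value for 6 rats, while that of Ces2h was 0.817.

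The effect of the treatment differed between the models for the same 3 genes. Since the controls are shared and drop out, this is the comparison of NASH-CH with NASH rats already given above and adds no result. The NASH-CH effect exceeded the NASH effect by 1.62 on the log2 scale for Ces2a (limma adjusted p = 0.0119), by 1.77 for Ces2i (limma adjusted p = 0.00115) and by 1.53 for Ces2j (limma adjusted p = 0.00871). All 6 NASH-CH rats lay above the NASH mean for each of them.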

How the results depend on the processing

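The number of members other than Ces2c that passed stayed at 0, 1 and 1 of 4 (NASH against control, NASH-CH against control, NASH-CH against NASH) under every alternative run, and Ces2c kept its direction, between 2.23 and 2.94 in NASH and 3.09 and 3.49 in NASH-CH. Of 1722 alternative values of 60 log2 fold changes, 1599 kept direction and call, 87 lost the call, 8 gained it and 28 turned. Library size only put the median over all genes at 0.23 (NASH) and 0.27 (NASH-CH), each against control. All genes called against control in NASH were 403, and 652 in edgeR, 1228 in DESeq2, 865 with library size only, 268 with no filter, 644 with the 2 groups alone, 1509 with quality weights and 128 to 982 without 1 rat. In NASH-CH they were 2192, and 5495 with no filter and 1408 with the 2 groups alone. Between the models they were 542, and 949 in DESeq2, 2649 with no filter, 349 with the 2 groups alone, 270 without small non-coding RNA genes and 346 to 591 without 1 rat. The causes were not tested.

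Replicate numbers were not treated as pairs in the main fit. The mean correlation of same-numbered rats was 0.0516 (NASH against control), 0.0732 (NASH-CH against control) and 0.0154 (NASH-CH against NASH). In that order, 4, 3 and 1 of 6 correlated best with their own number, where about 1 of 6 would do so if the numbers meant nothing. The counts of the comparisons with control are above that. Whether the numbers carry a pairing or a batch was not tested, and the main fit leaves it out. With the replicate block, Ces2i in NASH turned to 0.00639, Ces2j in NASH-CH lost its call (1.12, limma adjusted p = 0.0506) and 444 genes were called in NASH.

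Ces2i in NASH also turned to 0.258 in edgeR, 0.262 in DESeq2 and 0.186 with library size only, where Ces2g (0.117) and Gusb (0.102) turned too and Ces1f in NASH-CH turned to 0.071. Ces2h in NASH passed with library size only (0.543, limma adjusted p = 0.0453). Nr1i2 in NASH-CH turned to 0.0361 in edgeR, 0.0306 in DESeq2, 0.224 with library size only and 0.174 with quality weights, and against NASH to 0.0311 with quality weights. Leaving out 1 rat moved, in NASH, Ces1f from -0.0472 to 0.0938, Ces2g from -0.22 to 0.0732, Ces2i from -0.37 to 0.122, Cyp2b2 from -0.109 to 1.45 and Gusb from -0.183 to 0.00169, and in NASH-CH, Ces2g from -0.00575 to 0.151, Gusb from -0.0119 to 0.0991 and Nr1i2 from -0.136 to 0.145.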
